A study of Mus musculus with 8 samples.

Results

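The keratins of the interfollicular and palm epidermis were examined in mouse forepaw skin after an intradermal injection of PACAP (pituitary adenylate cyclase-activating polypeptide). The genes are Krt5, Krt14, Krt15, Krt1, Krt10, Krt2, Krt77, Krt78, Krt80 and Krt9, and they were chosen by name, for what is known of them, as a measure of epidermis and of palm identity. The arrays carried 14 non-control probes with these gene names, out of 39429 probes for 29608 gene names in all. All 10 genes were on the array, and on every array all 14 probes stood well above background in 1 or both channels. Well above background is a mark that the scanner software sets for each spot and channel. Only the Krt77 probe was not well above background in every sample on both of its arrays, so 9 of the 10 genes were measured throughout.

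Skin came from male C57BL/6 mice, called WT, and from male Adcyap1r1 -/- mice that lack the PACAP receptor PAC1R, called PAC1R KO, at 9 to 10 weeks of age. Under anaesthesia, the centre of the footpad received 5 µL of saline with 0.1% BSA, either alone as vehicle or with PACAP at 1e-07 mol/L, and skin was taken 30 or 60 min later. There were 8 RNA samples, 1 for each genotype, time and treatment, hybridised as 4 pairs of PACAP with vehicle. Each pair was put on 2 arrays with the fluorescent dyes Cy3 and Cy5 swapped, which count as 1 replicate, so no genotype and time has a replicate between animals. The study's methods give a number of mice for each genotype and say that samples were ground individually, but not how these mice were divided over the RNA samples. The arrays of WT skin shared 1 slide and those of KO skin a different one, so the effects of genotype and of slide cannot be told apart.

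Keratins are the filament proteins of epithelial cells, and a filament pairs a type I keratin with a type II keratin. In the epidermis the basal cells, which divide, make Krt5 and Krt14. As they leave the basal layer they switch to Krt1 and Krt10, and Krt2 follows in the upper layers. Krt9 is made above the basal layer of palm and sole skin, and inherited changes in it cause a thickening of palms and soles. In these arrays the type I genes Krt9, Krt10, Krt14 and Krt15 were measured by 5 probes placed on chromosome 11, and the type II genes Krt1, Krt2, Krt5, Krt77, Krt78 and Krt80 by 9 probes placed on chromosome 15, all on the minus strand of mm9.

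The probes that carry the results are 60 bases long, and their sequences are given as the files hold them, 5′ to 3′. Those of Krt10 and Krt1 are shown because these genes had the largest PACAP to vehicle differences, that of Krt9 because it marks the palm, and that of Krt14 because its gene moved less than Krt5, its partner, and than Krt1, Krt2 and Krt10 in the same comparison. For Krt1 and Krt9 the first 30 bases are shown. The Krt10 probe lies at chr11:99247846-99247905, the Krt1 probe at chr15:101676107-101676166 and the Krt9 probe at chr11:100048095-100048154. The Krt14 probe covers chr11:100064683-100065288, a stretch of 606 bases for a probe of 60, so it crosses an intron.
Krt10: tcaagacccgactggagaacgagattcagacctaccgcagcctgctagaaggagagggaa
Krt1: agttttcatattagtagcagtctgagtccc
Krt9: cttccttgtcctgacttcctagtaaagctt
Krt14: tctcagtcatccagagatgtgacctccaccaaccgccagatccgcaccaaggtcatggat

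Krt78 was read by a pair of overlapping probes, at chr15:101776589-101776648 and chr15:101776599-101776658, which serve as a measure of how closely 1 stretch of transcript is read on the same arrays. Capitals mark the 50 bases that both probes hold.
Krt78, brighter probe: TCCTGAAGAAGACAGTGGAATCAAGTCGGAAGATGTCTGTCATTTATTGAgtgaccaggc
Krt78, other probe: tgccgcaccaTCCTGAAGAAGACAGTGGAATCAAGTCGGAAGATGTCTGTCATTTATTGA

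Keratin genes resemble each other, and a probe could in principle read a related gene. The longest run that a member's probe shared letter for letter with a probe of any other keratin gene on the array was between 7 and 12 bases. The longest, of 12 bases, was between the Krt5 probe of lower signal and a Krt6b probe. Probes were compared with probes only and not with whole transcripts, so these runs do not show whether a probe reads a related gene. Where a gene had several probes, the one with the highest mean level over the 8 samples is given unless stated.

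The samples were checked against their label of palm skin. Levels are normalized log2 intensities of 1 probe, averaged over both arrays of a sample. They are compared between samples, and between the probes of 1 gene only to choose the brightest and to give the gaps between 5′ and 3′ probes. Krt9 was well above background on both arrays of all 8 samples, and so were the limb transcription factors Tbx5, Hoxa11, Hoxd13 and Tbx4. Of the 9 site genes examined, Hoxa13 was well above background in 7 samples, Pitx1 in 3, En1 in 2, and Hoxd12 and Dkk1 in 0. The 9 genes thus did not all go with the label, and their counts settle neither the palm nor the limb of origin. Genes of other tissues were present as well. All 15 hair follicle keratins and related genes on the array, and all 9 skeletal muscle genes, were well above background in all 8 samples, although the footpad itself bears no hair. In a bulk sample, fewer cells of a type and less RNA per cell cannot be told apart. Adcyap1r1 had a log2 level between 8.26 and 8.76 in the 4 WT samples and between 7.91 and 8.56 in the 4 KO samples, and whether its probe lies in the deleted part is not given in the sources used here, so it does not check the genotype. Over all probes, the log2 ratios of PACAP over vehicle on the swapped arrays correlated at -0.27 and -0.33 in WT and at -0.08 and -0.44 in KO at 30 and 60 min, once turned to the same direction. Over the 13 keratin probes without Krt77 the same correlations were 0.29, 0.74, 0.95 and 0.67, given as a description of probes that share their arrays.

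In PAC1R KO skin at 30 min, 8 of the 9 keratins measured throughout were lower with PACAP than with vehicle. For 7 of them this held on both arrays. Of all 30359 probes tested, 14627 were higher with PACAP there. Krt10 and Krt1 differed most. At the brightest probes the other keratins did not follow the layers, with basal Krt5 at 0.584-fold, Krt2 at 0.634-fold and Krt78 at 0.751-fold. In the other 3 comparisons, 0 of the 9 reached a 1.5-fold difference with the same direction on both arrays. Of all probes, 3.09% did so upwards and 1.18% downwards in WT at 30 min, 1.74% and 0.389% in WT at 60 min, and 1.12% and 0.418% in KO at 60 min. A probe was counted as past the thresholds where its mean ratio was at least 2.0-fold or at most 0.5-fold and both arrays had that direction and a p below 0.01 from the scanner software, Feature Extraction. That p describes the noise within 1 array, not the spread of animals. Krt1 and Krt10 were past the thresholds downwards in KO at 30 min, where 0.138% of all 30359 probes tested were. The other 7 keratins were not, and 0 of the 9 were past the thresholds elsewhere. The background there was 0.329% of probes upwards and 0.122% downwards in WT at 30 min, 0.741% and 0.125% in WT at 60 min, and 0.168% and 0.184% in KO at 60 min.

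**Figure D1:**
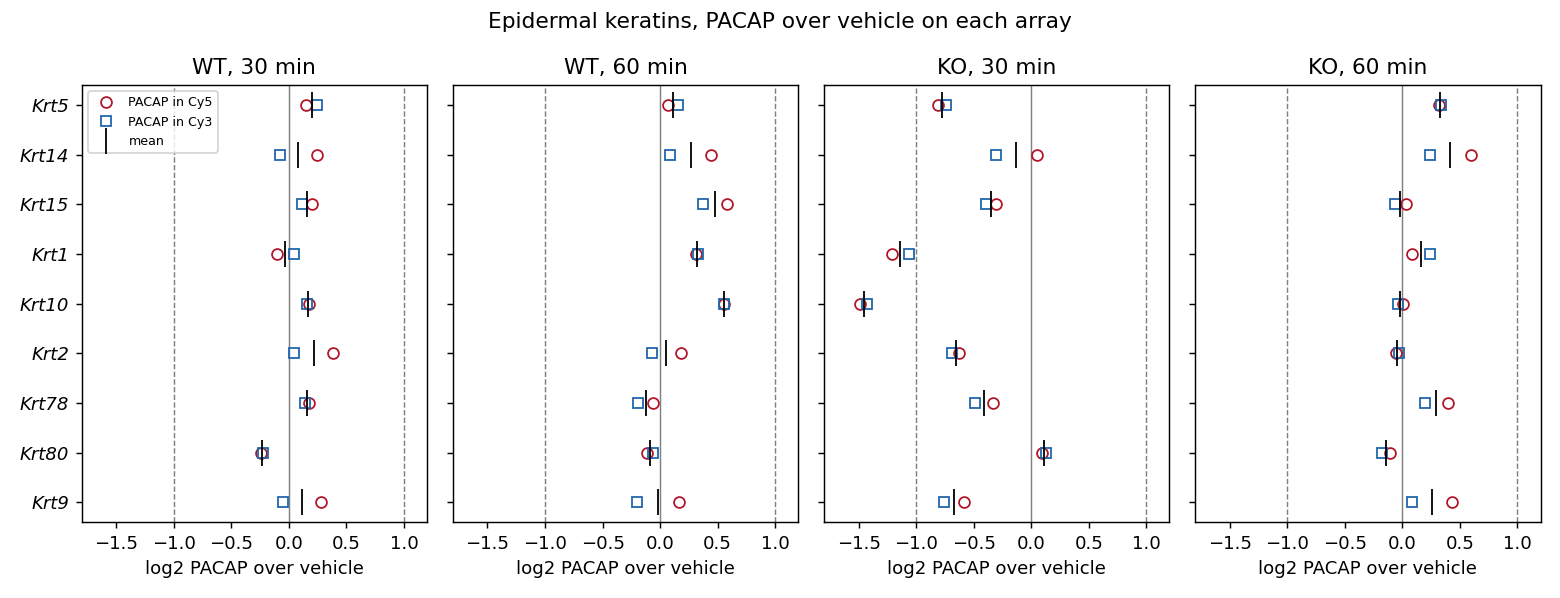
Log2 ratio of PACAP over vehicle (x axis) for 9 keratins in WT and PAC1R KO skin at 30 and 60 min. Circles and squares are the arrays with PACAP in Cy5 and in Cy3, the black bar is their mean, and dashed lines mark 2.0-fold and 0.5-fold; Krt10 at a mean of -1.45 and Krt1 at -1.14 lie beyond the 0.5-fold line on both arrays in KO at 30 min.

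Krt10, the type I keratin of the suprabasal layers, had a log2 level of 15.52 with vehicle and 14.10 with PACAP in KO skin at 30 min. Its ratio of PACAP over vehicle was 0.357-fold on the array with PACAP in Cy5 and 0.373-fold on the array with swapped dyes, a mean of 0.365-fold (a Feature Extraction p of 1.38e-09 and 4.23e-09). Both arrays gave nearly the same value, and the second Krt10 probe, placed nearer the 3′ end, gave 0.470-fold and was also past the thresholds. The coordinates given for that second probe cover 21 bases for a probe of 60. In WT skin Krt10 was at 1.12-fold after 30 min and at 1.47-fold after 60 min, and in KO skin it was at 0.988-fold after 60 min. The ratio in WT at 60 min had a p of 0.00790 and 0.00792 on its 2 arrays, but was below 2.0-fold, and the second probe was at 1.15-fold there. At its brighter probe Krt10 thus had the widest spread of ratios in this set, with its extremes in WT at 60 min and KO at 30 min.

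Krt1, the type II partner of Krt10, went from a log2 level of 16.27 with vehicle to 15.15 with PACAP in KO at 30 min. The arrays gave 0.433-fold and 0.478-fold, a mean of 0.455-fold (a Feature Extraction p of 1.99e-07 and 2.44e-06). In WT skin its ratio was 0.980-fold after 30 min and 1.25-fold after 60 min, and in KO skin it was 1.12-fold after 60 min. Both members of the Krt1 and Krt10 pair were therefore lowest relative to vehicle in the same comparison.

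Krt2, a type II keratin of the upper epidermis, was at 0.634-fold in KO at 30 min, with 0.649-fold and 0.620-fold on the 2 arrays. Its log2 level was 16.32 with vehicle and 15.65 with PACAP, the highest and the lowest of the 8 values at this probe. In the other comparisons its ratio lay between 0.971-fold and 1.16-fold. A second Krt2 probe, nearer the 5′ end by 674 bases of mm9 coordinates, was at 0.766-fold in KO at 30 min. Its Feature Extraction p was 0.0180 and 0.179 on the arrays.

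Krt5, the type II keratin of the basal layer, was at 0.584-fold in KO at 30 min (0.569-fold and 0.599-fold on the 2 arrays). Its log2 levels were 15.81 with vehicle and 15.03 with PACAP. In WT it was at 1.15-fold and 1.08-fold, at 30 and 60 min, and its ratio at 60 min in KO was 1.26-fold. Krt14, its type I partner, was at 0.915-fold in KO at 30 min, where its arrays disagreed in direction, with 1.04-fold on 1 and 0.809-fold on the other. At the brighter Krt5 probe, the log2 ratio of Krt5 was below that of Krt14 by 0.86 and 0.43 on the arrays of that comparison (log2 differences of -0.86 and -0.43). At the second Krt5 probe, which was at 0.904-fold and 0.853-fold on these arrays, the sign of the difference from Krt14 was not the same on both. In the other 3 comparisons the arrays disagreed, at the brighter probe, in the sign of this difference. Krt14 had its largest ratio, 1.33-fold, in KO at 60 min, with 1.51-fold and 1.18-fold on the arrays.

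Krt15, a basal keratin also known from the hair follicle bulge, was at 0.785-fold in KO at 30 min. In WT at 60 min it was at 1.39-fold, with a log2 ratio of 0.58 on 1 array and 0.37 on the other and a Feature Extraction p of 0.00573 and 0.0729. At 30 min in WT it was at 1.11-fold, and at 60 min in KO at 0.987-fold. At the brightest probes, Krt15 and Krt10 had the highest ratios of the 9 in WT skin at 60 min.

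Krt9, the palm and sole keratin, was at 0.628-fold in KO at 30 min, with 0.666-fold and 0.593-fold on the arrays (a p of 0.00540 and 0.000465 by Feature Extraction). The ratio of Krt9 was 1.08-fold and 0.990-fold in WT at 30 and 60 min, where the arrays disagreed in direction, and 1.19-fold in KO at 60 min. At the brighter Krt10 probe, the log2 ratio of Krt10 was below that of Krt9 by 0.90 and 0.67 on the arrays of KO at 30 min (log2 differences of -0.90 and -0.67). It was above that of Krt9 by 0.39 and 0.75 on those of WT at 60 min. At the second Krt10 probe the log2 ratios were -1.07 and -1.10 in KO at 30 min, beside -0.59 and -0.75 for Krt9. In WT at 60 min they were 0.27 and 0.14, beside 0.17 and -0.20 for Krt9.

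Krt78, a type II keratin, had ratios of 0.751-fold and 1.23-fold in KO, and of 1.11-fold and 0.918-fold in WT, at 30 and 60 min. The overlapping probes shown above differed by no more than 0.024 in their log2 ratio in any comparison. Krt80, a type II keratin of differentiating epithelial cells, was the only one of the 9 above 1 in KO at 30 min, at 1.08-fold. Its other ratios were below 1, between 0.852-fold and 0.942-fold. Krt77, a type II keratin related to Krt1, had log2 levels between 6.13 and 6.22 and was well above background on only 1 of the 2 arrays in 7 of the 8 samples, and its ratios differed in sign between the swapped arrays in 3 of the 4 comparisons.

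Krt1, Krt10, Krt5, Krt9 and Krt2 were below 1 by more than 1.5-fold with the same direction on both arrays in KO at 30 min, which are 5 of the 9 keratins, where 4.31% of all probes were. With the mean of each gene's probes in place of the brightest, Krt5 was at 0.716-fold and Krt2 at 0.697-fold, so that 3 of the 9 (Krt1, Krt10 and Krt9) had a ratio past 1.5-fold. At the brightest probes of the 5, each array had a p below 0.01. The median log2 ratio of the 9 was -0.66 in that comparison, beside -0.01 over all probes tested. It was 0.16 in WT at 30 min, 0.11 in WT at 60 min and 0.17 in KO at 60 min, beside -0.05, -0.01 and 0.00.

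At the brightest probes, the vehicle sample of KO skin at 30 min had the highest level of the 8 samples for 5 of the 9 keratins (Krt1, Krt2, Krt5, Krt9 and Krt10). The PACAP sample of the same pair had the lowest level for 6 of the 9, which were these 5 and Krt15. At the second probes of Krt2 and Krt5 the vehicle sample was instead second lowest of the 8, with log2 levels of 13.37 and 9.48, and the PACAP sample was lowest. Of all 20285 probes well above background in every sample, 11.1% were highest in the former sample, 21.2% lowest in the latter and 1.40% both. These levels come from the same arrays as the ratios and are no separate evidence. For Krt10 the order from high to low was KO vehicle at 30 min (15.52), WT PACAP at 60 min (15.27), WT PACAP at 30 min (15.26), KO vehicle at 60 min (15.14), KO PACAP at 60 min (15.10), WT vehicle at 30 min (15.06), WT vehicle at 60 min (14.68) and KO PACAP at 30 min (14.10). Of the 7 pairs of neighbours in that order, 3 lay further apart than the sum of their half-differences between arrays. No neighbours among the 5 values from 15.06 to 15.27 did.

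**Figure D2:**
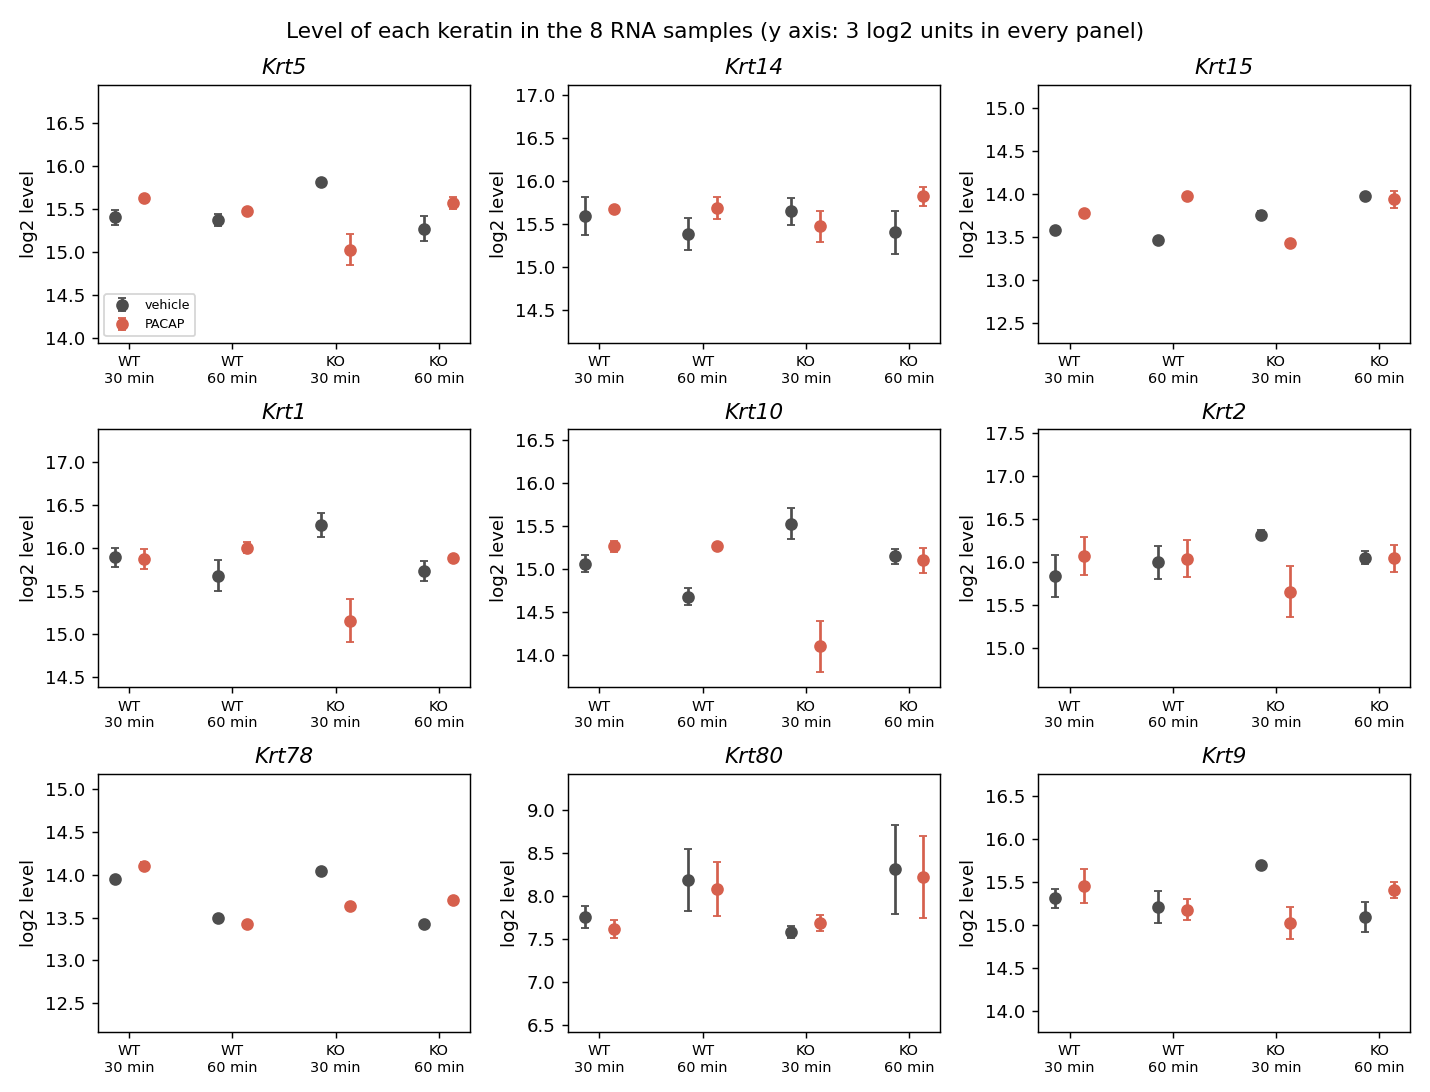
Log2 level (y axis, 3 log2 units in every panel) of 9 keratins in the 8 RNA samples, with vehicle in grey and PACAP in red; bars are the half-difference between the 2 arrays of a sample, and panels are not to be compared in height. In KO at 30 min the vehicle point is the highest and the PACAP point the lowest of the 8 at the brightest probes of Krt1, Krt2, Krt5, Krt9 and Krt10.

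For Krt9, taken as the measure of palm identity, the highest level was 15.70, in KO vehicle at 30 min. The other 7 samples lay between 15.03 and 15.45. Only the first step in this order, of 0.24, was larger than the spread between arrays, and the other 6 steps were not. Krt9 thus differed among the 8 samples by 0.67 on the log2 scale, and by 0.35 without the KO pair at 30 min.

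Krt1 was highest at 16.27 and lowest at 15.15, and no neighbours among its 6 middle values, from 15.67 to 16.00, lay beyond that spread. Krt5 ranged from 15.03 to 15.81, with 2 of 7 steps beyond the spread. Krt2 ranged from 15.65 to 16.32 and Krt14 from 15.38 to 15.82, in each case with 0 of 7 steps beyond the spread. Without the KO pair at 30 min, the range fell to 0.33 for Krt1, 0.23 for Krt2, 0.36 for Krt5 and 0.59 for Krt10, and stayed at 0.44 for Krt14.

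Krt78 was the most closely measured, with a median half-difference between arrays of 0.016, and 5 of its 7 steps exceeded the spread. It ran from 14.10 in WT PACAP at 30 min, 14.04 in KO vehicle at 30 min and 13.95 in WT vehicle at 30 min down to 13.42 in both WT PACAP and KO vehicle at 60 min. Its vehicle levels were therefore higher at 30 than at 60 min in both genotypes. Krt80 ran the other way, with vehicle levels of 7.75 and 7.58 at 30 min and of 8.18 and 8.31 at 60 min. The arrays of the Krt80 samples at 60 min differed widely, with half-differences between 0.31 and 0.52. Krt15 was lowest in KO PACAP at 30 min (13.42) and highest in KO vehicle at 60 min (13.98), and with vehicle it was at 13.58 and 13.46 in WT skin but at 13.75 and 13.98 in KO skin, at 30 and 60 min.

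The levels of some keratins moved together over the 8 samples, given as a description since the samples share arrays in pairs. Krt1 and Krt10 had a Pearson r of 0.95 and Krt5 and Krt9 of 0.93 (n = 8 samples). Of the 36 pairs among the 9 keratins, 12 had an r over 0.7. Without the KO pair at 30 min 6 did. The r of Krt5 and Krt9 was then 0.88 and that of Krt1 and Krt10 was 0.74, while that of Krt1 and Krt2 went from 0.86 to -0.04. Krt80 ran against Krt78, at -0.81 with all samples and -0.89 without that pair. Over the 20285 probes searched, the 5 genes outside the set whose level was most like that of Krt9 were Lypd3, Dsp, Xpnpep2, Zfp408 and Ripk4, with r between 0.95 and 0.98. The closest to the mean of Krt5 and Krt14 were Spred1, Dmkn, Dpyd, Dnaja2 and Actg1, with r between 0.93 and 0.96. The closest to the mean of Krt1 and Krt10 were Ppp1ccb, Tubb4b, Anxa8, Zfp646 and a transcript listed as NAP112407-1, with r between 0.95 and 0.98.

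Other genes of the epidermis were compared in the same way. Among 8 genes of the basal layer, 6 were lower with PACAP in KO at 30 min, with a median log2 ratio of -0.47. Itga6, the integrin of the hemidesmosome, was at 0.614-fold, Col17a1 at 0.658-fold and Trp63, the transcription factor of basal keratinocytes, at 0.678-fold, while Lama3 was at 1.15-fold. Among 10 desmosome genes, 8 were lower, with a median of -0.56. Pkp1 was at 0.514-fold, Dsp at 0.532-fold and Cdsn at 0.532-fold, and Dsg3 was at 1.43-fold. Among 12 genes of the cornified envelope 11 were lower, with a median of -0.27, where Lor, its main protein, was at 0.572-fold, Flg at 0.682-fold and Ivl at 0.779-fold. None of these 30 genes was past the thresholds in any of the 4 comparisons.

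**Figure D3:**
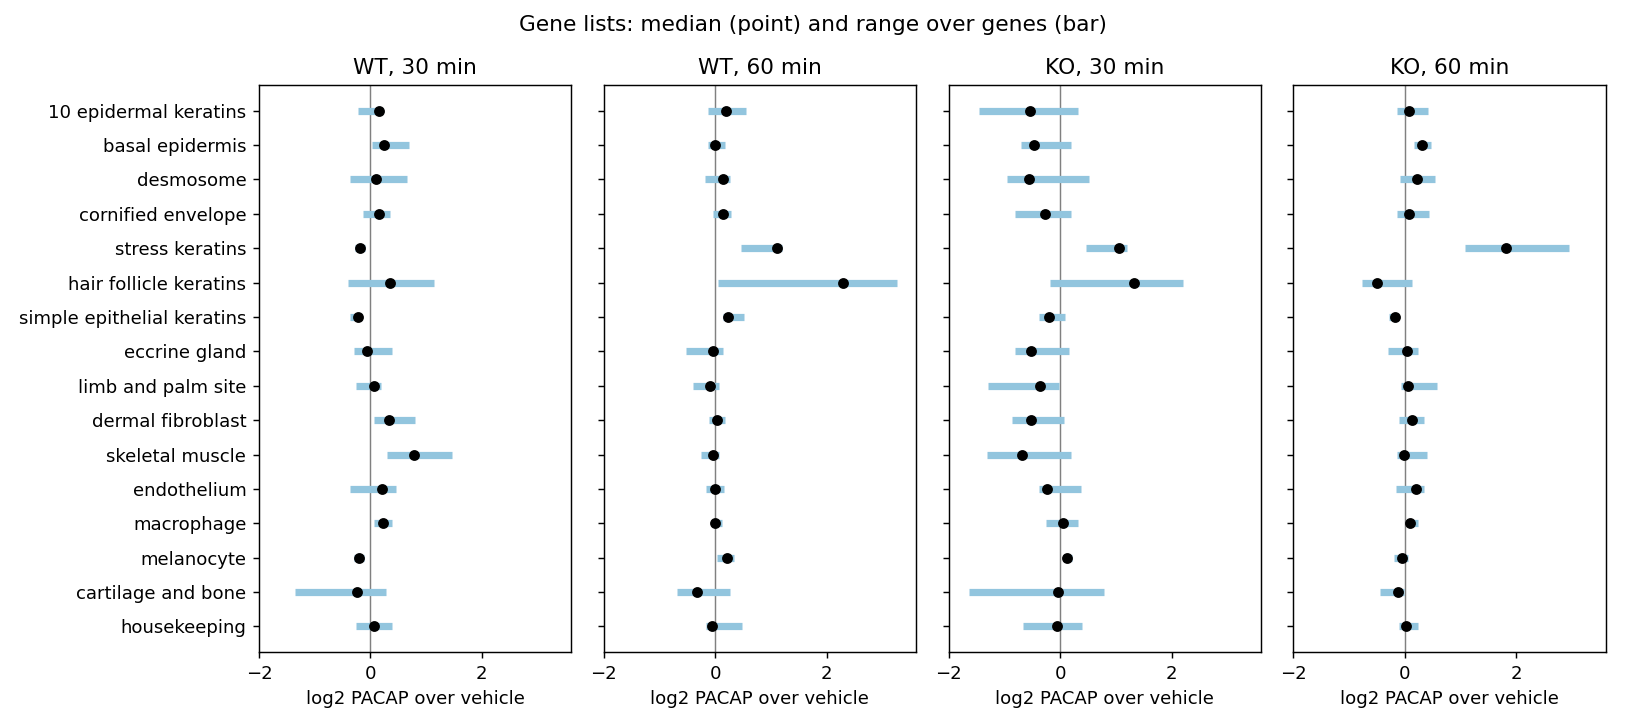
Log2 ratio of PACAP over vehicle (x axis) for 16 gene lists in the 4 comparisons, with the median of each list as a point and the range over its genes as a bar. In KO at 30 min the epidermal keratins, basal, desmosome, eccrine, dermal and muscle lists have medians between -0.68 and -0.47, while stress keratins and hair follicle keratins have medians of 1.06 and 1.33.

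Krt6a, Krt6b, Krt16 and Krt17, which keratinocytes make after injury, were all above 1 in KO at 30 min, with a median log2 ratio of 1.06, and Krt16 at 2.23-fold and Krt17 at 2.30-fold were past the thresholds upwards, where 0.774% of all probes were. In KO at 60 min all 4 were past the thresholds, with Krt6b at 7.68-fold and Krt16 at 5.38-fold, and 0.168% of all probes were. In WT at 60 min Krt6b, Krt16 and Krt17 were, at between 2.10-fold and 2.30-fold, beside 0.741% of all probes. In WT at 30 min all 4 were below 1, with a median of -0.19.

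Genes of other tissues were examined in KO at 30 min as well. Of 8 dermal fibroblast genes 7 were lower with PACAP, with a median log2 ratio of -0.52, and Col1a2 was at 0.550-fold. Of 9 skeletal muscle genes 8 were lower, with a median of -0.68, and Acta1 at 0.458-fold and Myh4 at 0.402-fold were past the thresholds downwards. Of 8 eccrine gland genes 7 were lower, with a median of -0.52, and Aqp5, the water channel of the secretory cells, was at 0.585-fold. Cftr was the eccrine gene not well above background in any sample. The summed level of the muscle genes, in normalized intensity units, was 167459 with vehicle and 102657 with PACAP, against 112633 to 165444 in the other 3 vehicle samples. That of the dermal genes was 134806 and 92364, against 97234 to 124471. Of the limb and palm site genes, the 4 well above background in all 8 samples were below 1, with Tbx5 at 0.789-fold, Hoxa11 at 0.760-fold, Tbx4 at 0.849-fold and Hoxd13 at 0.962-fold, and none was past the thresholds. The hair follicle genes went the other way, with 14 of 15 above 1 and 11 past the thresholds, and their summed level was 7978 with vehicle and 16595 with PACAP. Over the 8 samples this sum ran from 7978 to 53529. The 4 macrophage and 5 melanocyte genes had medians of 0.06 and 0.13, the 5 endothelial genes of -0.23, the 4 simple epithelial keratins of -0.19, the 5 cartilage and bone genes of -0.04, and the 8 housekeeping genes of -0.05. In WT at 30 min the muscle and dermal genes lay on the other side, with all 9 muscle genes above 1 at a median log2 ratio of 0.78, Myh4 past the thresholds upwards at 2.75-fold, and all 8 dermal genes above 1 at a median of 0.33. At 60 min the medians of both lists lay between -0.04 and 0.13 in WT and KO. The hair follicle genes had medians of 0.35 in WT at 30 min, 2.29 in WT at 60 min and -0.50 in KO at 60 min, with 3, 13 and 0 of 15 past the thresholds. The median of the eccrine genes lay between -0.06 and 0.03 in these 3 comparisons. The part of these tissues in the keratin values was not tested.

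The agreement between probes of 1 gene differed between keratins. For Krt5 in KO at 30 min the probe nearer the 3′ end gave 0.584-fold. A probe nearer the 5′ end by 4542 bases of mm9 coordinates, introns included, gave 0.878-fold. The level at the second probe was low in both samples of that pair, at 9.48 with vehicle and 9.35 with PACAP, while the other 6 samples lay between 10.06 and 10.41. The order of the samples at this probe is therefore not that of the brighter one, which had its highest level in the same vehicle sample. For Krt2 the gap between the probes was in the same direction, while for Krt10 it was opposite, since the probe placed nearer the 5′ end had the lower ratio. The placement of the other Krt10 probe rests on coordinates that cover only 21 bases.

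**Figure D4:**
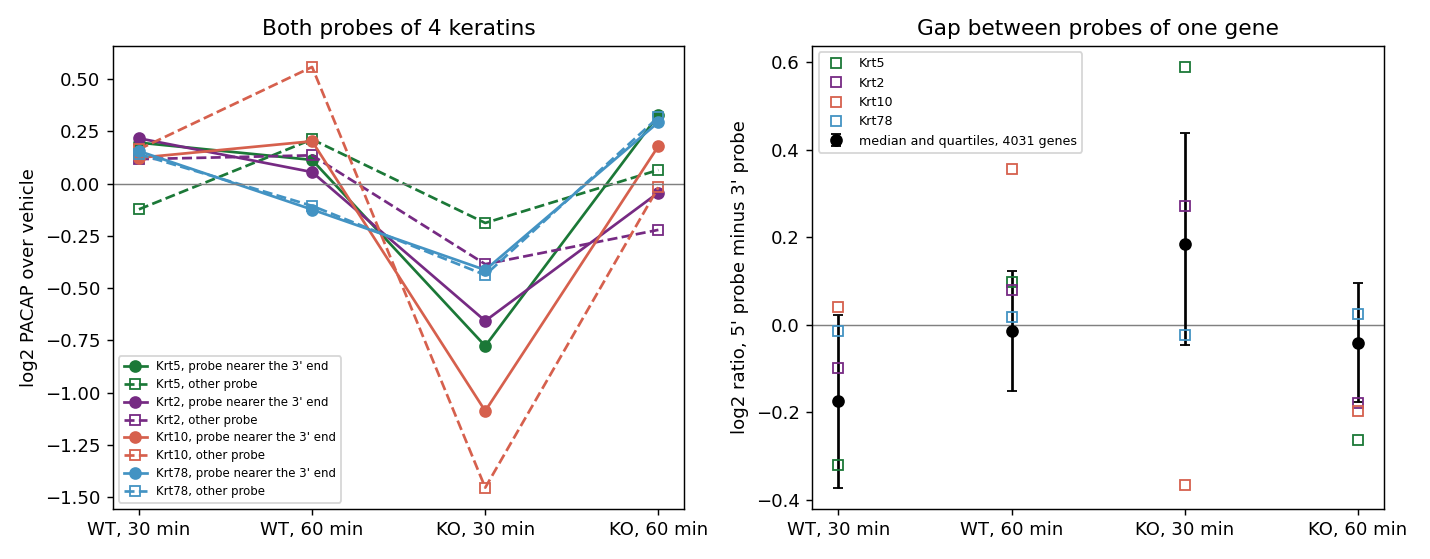
Left, log2 ratio of PACAP over vehicle (y axis) in the 4 comparisons at both probes of Krt5, Krt2, Krt10 and Krt78. Right, the log2 ratio of the 5′ probe minus that of the 3′ probe for the same genes, beside the median and quartiles over 4031 genes; in KO at 30 min the median gap is 0.18, with Krt5 at 0.59 and Krt10 at -0.37.

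For 4031 genes, probes lay between 1000 and 1000000 bases apart in mm9 coordinates, introns included. Their gap in log2 ratio, taken as the 5′ probe minus the 3′ probe, had a median of 0.18 in KO at 30 min. It was -0.17 in WT at 30 min, -0.01 in WT at 60 min and -0.04 in KO at 60 min. In levels, centred per gene over the 8 samples, the 5′ probes of 2124 genes were lowest relative to the 3′ probes in KO vehicle at 30 min, with a median of -0.11, and in WT PACAP at 30 min, with -0.09. The other 6 samples had medians between -0.03 and 0.08. RNA was amplified with a linear kit before labelling, and such a gap between 5′ and 3′ probes is a sign by which RNA samples can differ in quality. Its part in the keratin ratios was not tested.

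Replication for a PACAP effect exists only across the 4 comparisons, each taken as 1 value. In the limma fit of their mean against 0, 0 of the 10 keratins and 0 of 30357 probes had an adjusted p below 0.05. The lowest adjusted p of a keratin was 1, 0 keratins had an unadjusted p below 0.05, and 2.24% of all probes did. Krt14 had the lowest unadjusted p among the 9, with a mean log2 effect of 0.16 (SE 0.11, n = 4 comparisons, adjusted p = 1 in limma) and values of 0.08, 0.27, -0.13 and 0.42. Krt9 had a mean of -0.08 (95% interval -0.47 to 0.31).

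PAC1R KO skin was then set beside WT skin. For the PACAP effect in KO minus WT, limma again gave 0 keratins with an adjusted p below 0.05, and 0 keratins with an unadjusted p below 0.05 beside 3.20% of all probes. The effect was below 0 for 9 of the 10. Krt10 had the largest, with log2 ratios that averaged 0.36 over the WT and -0.74 over the KO comparisons, a difference of -1.10 (SE 0.47, adjusted p = 0.839 in limma, 95% interval -2.24 to 0.05). That difference was -0.38 when KO at 30 min was left out. For Krt9 the difference was -0.26 (95% interval -1.06 to 0.54), and it was 0.21 without KO at 30 min. With time as a covariate, which leaves 1 residual degree of freedom, 1 keratin had an unadjusted p below 0.05, beside 3.12% of all probes. It was Krt10, with an unadjusted p of 0.0033 and an adjusted p of 0.757 in limma. At the second Krt10 probe the effect was -0.62, with an unadjusted p of 0.080 in the same limma fit.

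For the PACAP effect at 60 min minus 30 min, 0 keratins had an adjusted or an unadjusted p below 0.05, where 1.59% of all probes had the latter. The effect was above 0 for 9 of the 10, and Krt1 had the lowest unadjusted p, with -0.58 at 30 min and 0.24 at 60 min, a difference of 0.83 (SE 0.39, adjusted p = 1 in limma). Without KO at 30 min it was 0.27. With genotype as a block, Krt10 and Krt1 had an unadjusted p below 0.05, at 0.0115 and 0.0198, beside 1.78% of all probes, and all 10 keratins had an adjusted p of 1 in limma. At the second Krt10 probe the unadjusted p was 0.058 in the same limma fit.

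Without PACAP, keratin levels in KO and WT skin did not pass the test either. Over the 4 vehicle samples 0 keratins had an adjusted p below 0.05, and 0 had an unadjusted p below 0.05 beside 5.03% of all 24903 probes tested. Krt15 had the lowest p, with a mean level of 13.52 in WT and 13.87 in KO, a difference of 0.34 (SE 0.13, adjusted p = 0.891 in limma, 95% interval -0.01 to 0.70). Krt9 differed by 0.14 (95% interval -0.45 to 0.73). With time as a covariate, which again leaves 1 residual degree of freedom, the lowest p was that of Krt10, whose level was higher in KO by 0.47 (SE 0.086, an unadjusted p of 0.0044, adjusted p = 0.319 in limma). Krt15 also had an unadjusted p below 0.05 there, and 14.3% of all probes had one. At the second Krt10 probe the level was higher in KO by 0.27, with an unadjusted p of 0.081 in the same limma fit. Between vehicle samples at 60 and at 30 min, Krt78 was lower by 0.54 (a log2 difference of -0.54, SE 0.11) and Krt80 higher by 0.58 (SE 0.12), both with an adjusted p of 0.193 in limma. These were the 2 of 10 keratins with an unadjusted p below 0.05, where 17.6% of all probes had one, so their share is near the background. With genotype as a block, 4 keratins had one (Krt78, Krt80, Krt10 and Krt1), beside 25.3% of all probes, and their lowest adjusted p was 0.119 in limma. The second Krt10 probe did not, with an unadjusted p of 0.061 in the same limma fit. Krt9 differed by -0.35 (95% interval -0.74 to 0.04) without the block.

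**Figure D5:**
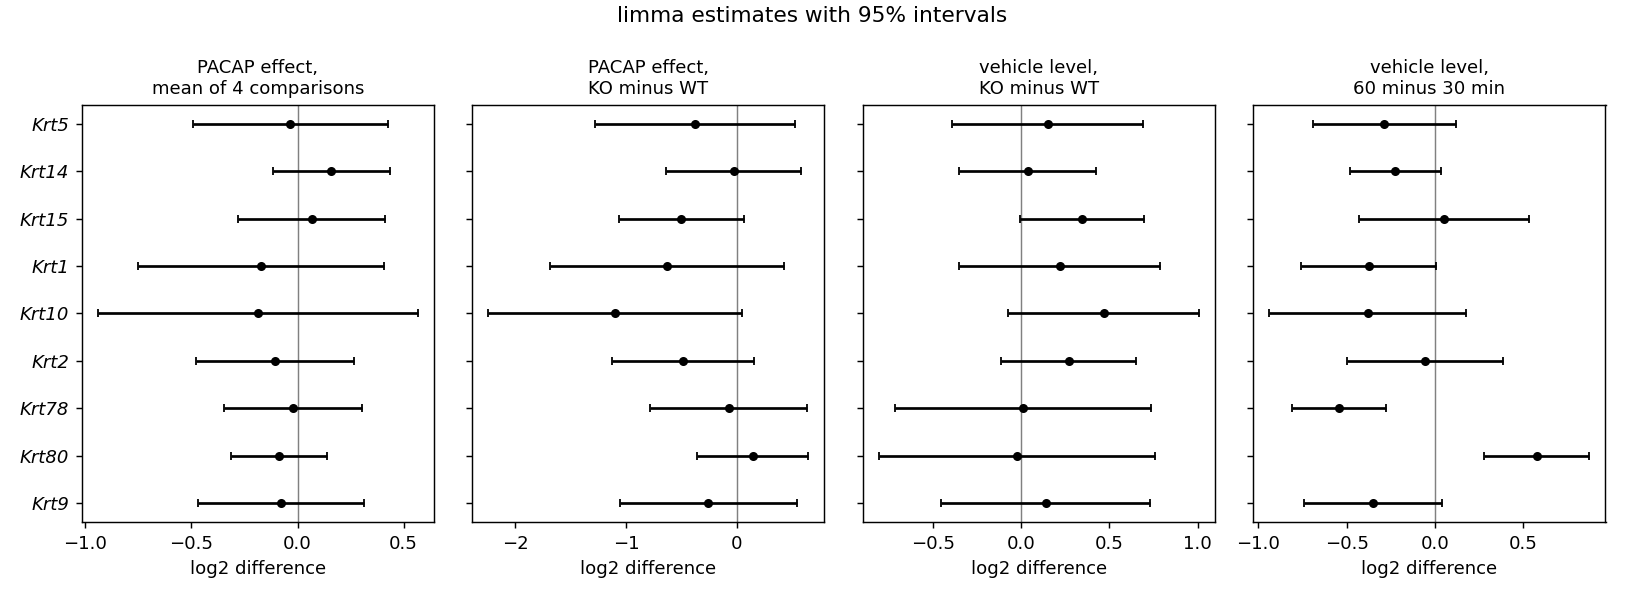
Estimated log2 difference (x axis) of 9 keratins in 4 limma fits, with points for estimates and bars for 95% intervals. The intervals of Krt78 and Krt80 between vehicle samples at 60 and 30 min lie off 0 before adjustment, at -0.54 and 0.58, and all others include 0.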

How the data were processed

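Intensities of 8 RNA samples on 8 Agilent 2-colour arrays were used. Per the file headers the authors used Agilent Feature Extraction for the scans (12.0.3.1 in the file headers and 11.0.1.1 in the submitters' processing notes). The deposited log10 ratios and p-values per spot come from background-corrected, LOWESS-normalized signals, and the deposited intensity columns hold processed signals, mean signals and local backgrounds. The series matrix that the authors deposited gives the log10 ratio of these processed signals.

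Control spots and spots marked as outliers were left out, and 0 spots of the keratin probes were affected. On each array 78.6% to 94.5% of spots stood well above background in red and 54.0% to 65.3% in green, and the number of arrays limits the precision. Ratios were turned to PACAP over vehicle from the dye labels and averaged over both swapped arrays of a pair, which are 1 replicate. Log2 levels per RNA sample came from normexp correction (offset 50), loess within and Aquantile between arrays, averaged over both arrays.

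The tests used lmFit and eBayes of limma 3.58.1 (R 4.3.3) with Benjamini-Hochberg adjustment over all probes tested. A probe was tested if each array had it well above background in 1 or both channels, or, for levels, if a vehicle sample had. P-values measure the spread between these samples. The steps were tested on simulated data. Python 3.11.15 with matplotlib 3.10.9 was used for probe sequences and plots. The files gave the gene names and the mm9 coordinates. No annotation of that build was used here, so exons and untranslated regions are not stated.

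The 10 genes, all lists of genes, tests and alternatives were chosen with earlier results of these data known. Named were all 10 genes by their brightest probe, members of a described list, and the 5 genes most like Krt9, the mean of Krt5 and Krt14, and the mean of Krt1 and Krt10 in level by Pearson r. Members of other lists named with values, and the members named from each limma fit, were chosen after their values were seen. Alternatives were normexp and loess ratios, median centring, outlier spots kept, the series matrix ratios, the mean of all probes, single arrays, filters on dim probes, samples or comparisons left out, and time or genotype as a covariate.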

Additional observations from a re-analysis of the deposited data

Results flagged for a closer look

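In the 4 PACAP samples, the lowest level stood apart from the rest at the brightest probes of 3 keratins, and in each it was the KO sample at 30 min. The gap to the next sample, as a share of the whole range, was 0.844 for Krt1, 0.927 for Krt2 and 0.852 for Krt10. For Krt2 the gap lay between 15.65 and 16.04, with half-differences between arrays of 0.30 and 0.22. At the second Krt2 probe the PACAP levels were 13.02, 13.41, 13.81 and 14.08, so the lowest did not stand apart. Chance gives such a gap in about 1 of 20 groups, and the genes share their samples.

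At the brightest probes, the PACAP effect had opposite signs on both arrays in comparisons set side by side, and these differences were not tested. At 30 min the log2 ratio in KO minus that in WT was -0.87 for Krt2, -0.97 for Krt5, -1.62 for Krt10, -0.50 for Krt15, -0.57 for Krt78 and 0.34 for Krt80. At the second probes the log2 ratios in WT and KO were 0.12 and -0.39 for Krt2, -0.12 and -0.19 for Krt5, and 0.12 and -1.09 for Krt10. The WT arrays disagreed in sign at those of Krt2 and Krt5. In KO the log2 ratio at 60 min minus that at 30 min was 1.30 for Krt1, 1.11 for Krt5, 0.93 for Krt9, 0.71 for Krt78 and -0.25 for Krt80. At the second Krt5 probe the log2 ratio in KO was 0.07 at 60 min and -0.19 at 30 min. Krt78 also differed between KO and WT at 60 min by 0.42, and between 60 and 30 min in WT by -0.28. All but these last 2 differences involve the KO pair at 30 min.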

How the results depend on the processing

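The counts of keratins past the thresholds were the same under all alternatives run, with Krt1 and Krt10 the members counted downwards in KO at 30 min. Over 7 alternatives, Krt10 stayed between 0.357-fold and 0.414-fold there, Krt1 between 0.433-fold and 0.478-fold, Krt5 between 0.569-fold and 0.716-fold, Krt2 between 0.620-fold and 0.697-fold, and Krt9 between 0.593-fold and 0.666-fold, while Krt14 ran from 0.809-fold to 1.04-fold. The number of keratins with an adjusted p below 0.05 for the mean PACAP effect ran from 0 to 1 when single arrays or comparisons were left out. The 1 was Krt77, with replicate 1 left out, which was well above background on only 1 of the 2 arrays in 7 of the 8 samples. In the other limma fits it stayed at 0 under every alternative run. When arrays or comparisons were left out, the mean effect ran from -0.23 to 0.12 for Krt9 and from -0.014 to 0.33 for Krt14, and the effect in KO minus WT from -0.72 to 0.21 for Krt9 and from -1.82 to -0.38 for Krt10. The effect at 60 minus 30 min ran from 0.27 to 1.38 for Krt1. The difference of Krt9 between KO and WT vehicle samples ran from -0.16 to 0.44 when samples or arrays were left out, and was -0.00047 with processed signals centred on the median. That of Krt15 ran from 0.072 to 0.46 over all alternatives, and was lowest with those signals. Causes were not tested. No paired analysis was possible by replicate number, because the replicate numbers mark the dye orientation of arrays with the same RNA pair, which were averaged before the fit. The ratios of PACAP over vehicle are themselves differences within a pair, and the fits with time as a covariate or genotype as a block matched the comparisons by time or genotype.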
